A study of Mus musculus with 8 samples.

Results

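The genes described here are the enzymes and regulators of sterol and fatty acid synthesis that are controlled by the sterol regulatory element-binding proteins (SREBPs). The set holds 31 genes, taken by symbol from a fixed list, and all 31 were found among the 16649 genes of the deposited count matrix. All 31 also passed the filter on low counts, which kept 13412 genes. By role, 8 genes belong to the mevalonate steps, 11 to the squalene and sterol steps, 4 to regulation and sterol transport, and 8 to fatty acid synthesis and desaturation. The cells were CD4+ T cells from the spleens of female mice aged 10 weeks, either wild type (WT) or labelled as Gpr65 knockouts (KO), with the strain given only as GPR65. Gpr65 encodes a receptor that senses extracellular protons. The Th17 cultures contained IL-1b at 20 ng/ml, IL-6 at 25 ng/ml and IL-23 at 20 ng/ml, and the Th22 cultures contained IL-1b at 20 ng/ml, IL-6 at 40 ng/ml, IL-23 at 20 ng/ml and 400 nM FICZ, which activates the aryl hydrocarbon receptor (AHR). Effects of FICZ and of the IL-6 dose therefore cannot be told apart. Cells were collected on day 3 and profiled as single cells with the 10x Genomics 3′ kit (v3), with 2 libraries in each of the 4 groups, 8 in all. The labels do not say whether the libraries numbered 1 and 2 came from separate mice or cultures, so a p-value here speaks only of spread among these libraries, and that spread may be technical.

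Sterols are made from acetyl-CoA through mevalonate to farnesyl diphosphate, then through squalene and lanosterol to cholesterol. The precursors of the SREBPs sit in the endoplasmic reticulum, where the INSIG proteins hold them back while sterol is plentiful. When sterol falls, the factors are cut free and switch on the genes of sterol synthesis (chiefly SREBP2, from Srebf2) and of fatty acid synthesis (chiefly SREBP1, from Srebf1). Activated T cells raise both routes as they grow, and sterol intermediates are known ligands of RORγt, the factor that directs the Th17 program.

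The promoters of 24 of the 31 genes were found in RefSeq tables for GRCm38.p6, as 300 bases from 250 before to 50 after each transcription start. Fdps, Fdft1, Sqle, Stard4, Scd1, Scd2 and Fads1 had no entry. A sterol regulatory element, written as TCACNCCAC and searched on both strands, was present for 1 of the 24 genes (4.17%), against 1.44% of the 27025 genes in the table. The E-box form ATCACGTGA was present for 0 of the 24, against 0.374% of all genes. The CCAAT box, bound by NF-Y, an SREBP partner, was present on either strand for 20 of the 24 genes (83.3%), against 41.1% of all genes. These motifs do not overlap each other in the promoters shown here, and a match is a run of letters, not a measured binding site. Hmgcs1, which makes the substrate of the rate-limiting step, is shown because its promoter held the single sterol element, and it was chosen after the search. Tm7sf2 and Ebp are shown as the leading genes of the comparison of Th22 with Th17 that had promoters in the table, neither with a sterol element in this window. Capitals mark the sterol element and the CCAAT boxes, which read ATTGG where they lie on the opposite strand. The promoters are given 5′ to 3′ on the strand of the gene. Hmgcs1 is at chr13:119690101-119690400 on the plus strand, Tm7sf2 at chr19:6067801-6068100 on the minus strand and Ebp at chrX:8193463-8193762 on the minus strand.
Hmgcs1: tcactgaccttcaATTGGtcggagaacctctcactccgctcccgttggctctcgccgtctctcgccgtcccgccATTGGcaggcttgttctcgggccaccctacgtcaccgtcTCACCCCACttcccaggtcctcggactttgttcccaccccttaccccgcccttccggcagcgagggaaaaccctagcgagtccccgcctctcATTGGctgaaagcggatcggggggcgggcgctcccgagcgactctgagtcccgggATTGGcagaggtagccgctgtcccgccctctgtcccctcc
Tm7sf2: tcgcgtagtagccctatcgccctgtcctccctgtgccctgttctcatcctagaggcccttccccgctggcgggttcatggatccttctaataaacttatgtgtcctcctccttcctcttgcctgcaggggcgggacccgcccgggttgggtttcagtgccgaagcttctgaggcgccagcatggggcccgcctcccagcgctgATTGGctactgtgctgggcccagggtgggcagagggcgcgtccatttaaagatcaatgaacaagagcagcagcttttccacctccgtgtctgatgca
Ebp: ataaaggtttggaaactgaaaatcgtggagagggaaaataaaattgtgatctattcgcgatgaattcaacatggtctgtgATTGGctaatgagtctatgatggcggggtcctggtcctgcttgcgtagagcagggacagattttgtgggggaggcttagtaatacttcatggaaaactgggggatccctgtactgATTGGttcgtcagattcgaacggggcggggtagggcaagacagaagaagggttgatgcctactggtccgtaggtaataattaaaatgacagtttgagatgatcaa
In Hmgcs1 the sterol element began 137 bases before the start (position -137), with CCAAT boxes on the minus strand at -237, -176 and -45 and another after the start. Tm7sf2 held 1 CCAAT box, at -47, and Ebp held 2, at -170 and -55.

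Each library held 9969 to 15119 kept cells and 33826527 to 58895019 UMIs, the molecule tags that are counted here, with medians of 2354 to 4142 UMIs per cell. Levels are given in CPM, the counts of a gene per 1000000 UMIs of the library after TMM scaling. Gpr65 stood at 50.6 to 72.9 CPM in the WT libraries and at 0.887 to 1.58 CPM in the KO libraries. Of the other cell types checked, the summed markers reached 9.99 to 13.5 CPM for CD8 T cells, 11.6 to 26.7 CPM for B cells, and less than 1 CPM for each of the myeloid, dendritic and red cell lists, against 2270 to 3340 CPM for the CD4 T cell list. Between 23 and 80 cell barcodes were shared by each pair of libraries, and 1269 of 103384 distinct barcodes occurred in more than 1 library. The KO replicate 1 libraries had the lowest shares of cells with both deposited cell cycle scores at or below 0. These were 52.7% in Th17 and 60.8% in Th22, against 64.9% to 66.7% in the other 6 libraries. The γδ T and NK cell markers summed to 37.6 and 44.5 CPM in KO replicate 1. The sums were 16.7 and 23.1 CPM in KO replicate 2 and 19.3 to 34.0 CPM in the WT libraries. In KO replicate 1 several sterol genes were also lower, as described below, so results are also given without its libraries. KO replicate 2 stood apart as well, in the share of the authors' cluster 1 described below. This share was 37.2% in Th17 and 35.9% in Th22, against 21.8% to 29% in the other 6 libraries. No fit left out both KO replicate 2 libraries.

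Fdps, which makes farnesyl diphosphate, had the highest level of the set, with a mean of 324 CPM over the 8 libraries. Pmvk, the phosphomevalonate kinase, followed at 92.6 CPM and Cyp51, the lanosterol demethylase, at 70.4 CPM. The lowest means were those of the desaturases Fads1 (4.34 CPM) and Fads2 (6.29 CPM) and of the sterol reductase Tm7sf2 (6.20 CPM). The 3′ assay tags each molecule near 1 end, so these levels carry no length term. The 31 genes together made up 984 and 1130 CPM in KO Th17, 1120 and 1420 CPM in KO Th22, 1150 and 1120 CPM in WT Th17, and 1360 and 1270 CPM in WT Th22 (replicates 1 and 2). The KO Th22 libraries thus spanned a wider range than any other group, and KO Th17 replicate 1 was the lowest of the 8.

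**Figure D1:**
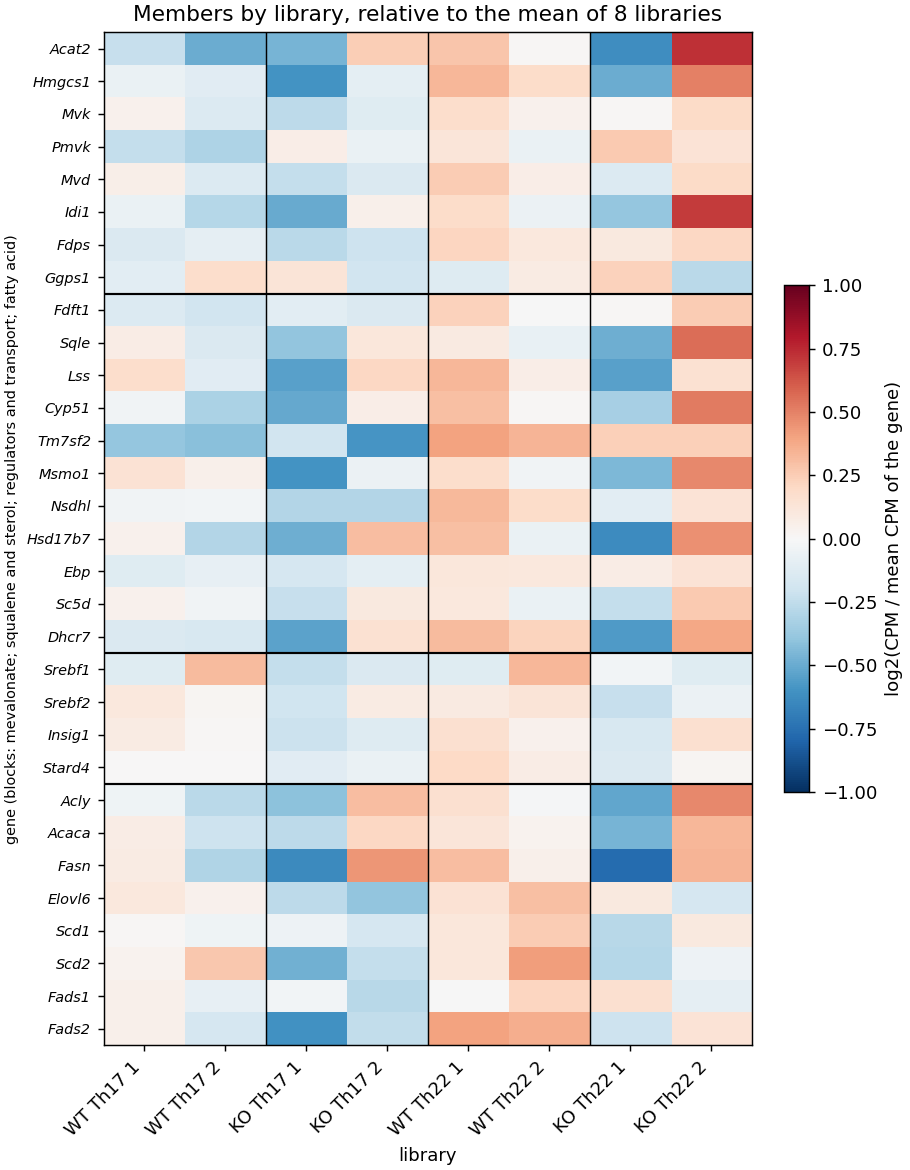
Level of each gene (rows, in blocks by role) in each library (columns), as log2 of its CPM over the gene's mean over the 8 libraries, with red above and blue below that mean. Tm7sf2 and Fdps are redder in all 4 Th22 libraries, Scd2 is bluer in all 4 KO libraries, and both KO replicate 1 columns are blue for many sterol genes while KO Th22 replicate 2 is red.

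Th22 and Th17 cultures were compared over both genotypes, 4 libraries against 4. Tm7sf2 and Fdps, both of the sterol route, rose in Th22, and no gene of the set fell. They are 2 of 31 genes called, all higher, where edgeR's quasi-likelihood test with Benjamini-Hochberg adjustment called 1.94% of all tested genes in either direction and 1.01% as higher. By sign alone, 29 of the 31 genes were higher in Th22, with a median log2 fold change of 0.18, while 6831 of all 13412 genes were higher and their median was 0.00. With library size alone in place of TMM factors, 23 of the 31 were higher and the median was 0.08, with all genes shifted to a median of -0.09. Leaving out KO Th22 replicate 2 gave 22 of 31 higher and a median of 0.10, and leaving out KO Th22 replicate 1 gave 30 of 31 and 0.28. DESeq2 called 3 genes of the set, Tm7sf2, Fdps and Ebp, and 4.12% of all tested genes.

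Tm7sf2 encodes a sterol C14 reductase that acts after Cyp51, and lies on chromosome 19 from 6062821 to 6068373 (mm10, minus strand). Its level was 5.44 and 4.12 CPM in KO Th17, 4.75 and 4.63 CPM in WT Th17, 7.33 and 7.30 CPM in KO Th22, and 8.18 and 7.85 CPM in WT Th22. All 4 Th22 libraries lay above all 4 Th17 libraries. The means were 7.66 ± 0.424 CPM (SD, n = 4) in Th22 and 4.73 ± 0.541 CPM in Th17. The log2 fold change was 0.69 ± 0.11 (SE), with a 95% interval of 0.42 to 0.97 (edgeR adjusted p = 0.017). Without any 1 of the 4 WT libraries the call was lost, with edgeR adjusted p between 0.066 (without WT Th22 replicate 1) and 0.092 (without WT Th22 replicate 2). The gene has few counts, 2215 UMIs over all libraries, and the annotation places Vps51 over it on the same strand, so reads of the pair may not be told apart.

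Fdps sits on the minus strand of chromosome 3 between 89093588 and 89101959. It stood at 269 and 281 CPM in KO Th17 and 293 and 304 CPM in WT Th17, against 347 and 375 CPM in KO Th22 and 376 and 348 CPM in WT Th22. Again no Th17 library reached the lowest Th22 library. The means were 361 ± 16.3 CPM (SD, n = 4) in Th22 and 287 ± 15.4 CPM in Th17, a log2 fold change of 0.34 ± 0.07 (SE), interval 0.17 to 0.50 (edgeR adjusted p = 0.038). The call was lost when any 1 of the 8 libraries was left out, with edgeR adjusted p between 0.055 and 0.16 and log2 fold changes between 0.30 and 0.37. The annotation also places a gene model without a common name over Fdps on its own strand.

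In this fit, which did not pair libraries by replicate number, the other mevalonate enzymes around Fdps were not called. Fits that did, and their calls, are given in the last section. Mvk, the mevalonate kinase, stood at 19.3 and 21.3 CPM in KO Th17, 23.8 and 21.1 CPM in WT Th17, 23.3 and 26.5 CPM in KO Th22, and 26.1 and 23.8 CPM in WT Th22. Its groups touched, since WT Th17 replicate 1 exceeded the lowest Th22 library (log2 fold change 0.22 ± 0.09, edgeR adjusted p = 0.26). Pmvk, the next kinase, stood at 97.1 and 88.5 CPM in KO Th17, 78.4 and 74.8 CPM in WT Th17, 111 and 102 CPM in KO Th22, and 101 and 88.5 CPM in WT Th22. It overlapped as well (0.25 ± 0.07, edgeR adjusted p = 0.15). Acat2, which joins acetyl-CoA units, had 0.40 ± 0.27, Hmgcs1 0.38 ± 0.20, Idi1, the isopentenyl isomerase, 0.35 ± 0.22, and Mvd, the mevalonate diphosphate decarboxylase, 0.21 ± 0.09. Ggps1, which diverts farnesyl diphosphate to geranylgeranyl diphosphate for protein prenylation, was at -0.02 ± 0.13. The wide errors of Acat2, Hmgcs1 and Idi1 accompany the difference between the KO replicates described below.

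Among the 11 squalene and sterol genes, 1 was called and all 11 were higher in Th22 by sign, with a median of 0.22. Fdft1, the squalene synthase, stood at 44.9 and 43.6 CPM in KO Th17, 43.9 and 42.3 CPM in WT Th17, 48.7 and 57.6 CPM in KO Th22, and 56.7 and 48.1 CPM in WT Th22. All Th22 libraries exceeded all Th17 libraries, but the difference did not pass (0.27 ± 0.08, edgeR adjusted p = 0.16). Fdft1 overlaps Ctsb on the opposite strand. Ebp, the sterol isomerase, was at 55.5 and 58.0 CPM in KO Th17, 57.1 and 58.9 CPM in WT Th17, 65.5 and 68.3 CPM in KO Th22, and 67.3 and 67.0 CPM in WT Th22. It too was separated without overlap (0.22 ± 0.06, edgeR adjusted p = 0.12). In all, 4 of the 31 genes, Tm7sf2, Fdps, Ebp and Fdft1, had every Th22 library above every Th17 library, against 3.46% of all tested genes.

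Nsdhl, which acts in the removal of C4 methyl groups, was at 10.1 and 10.1 CPM in KO Th17, 12.1 and 12.2 CPM in WT Th17, 11.5 and 13.6 CPM in KO Th22, and 15.5 and 14.1 CPM in WT Th22. Th22 was above Th17 within each genotype, with overlap between genotypes (0.29 ± 0.08, edgeR adjusted p = 0.13). Cyp51 ranged from 49.2 CPM (KO Th17 replicate 1) over 73.8, 68.7 and 56.5 CPM in the other Th17 libraries, and from 55.8 CPM (KO Th22 replicate 1) to 101 CPM (KO Th22 replicate 2), with 86.6 and 70.9 CPM in WT Th22. The libraries overlapped widely (0.34 ± 0.19, edgeR adjusted p = 0.48), and Cyp51 overlaps Akap9 on the opposite strand. The remaining sterol genes were Dhcr7, which makes cholesterol from its last precursor (0.29 ± 0.21), Msmo1, the C4 methyl oxidase (0.18 ± 0.20), Sqle, the squalene epoxidase (0.15 ± 0.21), Hsd17b7, the sterol ketoreductase (0.15 ± 0.25), Lss, the lanosterol synthase (0.07 ± 0.20), and Sc5d, the C5 desaturase (0.06 ± 0.12). Every one of these 6 intervals included 0.

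The regulators differed little between cultures. Srebf2 was at -0.02 ± 0.08, Srebf1 at 0.06 ± 0.13, Insig1 at 0.12 ± 0.09, and Stard4, a cytosolic sterol carrier, at 0.08 ± 0.07, with edgeR adjusted p of 0.61 or more. The 95% interval for Srebf2 was -0.24 to 0.19, so differences larger than these bounds were outside the interval. In fatty acid synthesis, 0 of 8 genes were called by edgeR or DESeq2. An unadjusted p under 0.05 was found for 2 of the 8, and for 1945 of all 13412 tested genes. Fads2, the Δ-6 desaturase, had the larger difference of the 2. It stood at 4.13 and 5.29 CPM in KO Th17, 6.51 and 5.61 CPM in WT Th17, 5.45 and 6.90 CPM in KO Th22, and 8.33 and 8.08 CPM in WT Th22 (0.42 ± 0.12, edgeR adjusted p = 0.14). Elovl6, which elongates palmitate, was at 15.4 and 14.1 CPM in KO Th17, 19.9 and 19.1 CPM in WT Th17, 19.8 and 16.5 CPM in KO Th22, and 20.4 and 22.8 CPM in WT Th22 (0.22 ± 0.09, edgeR adjusted p = 0.29). Fasn, the fatty acid synthase, was at 0.09 ± 0.28, Acaca, the acetyl-CoA carboxylase, at 0.07 ± 0.18, and Acly, the citrate lyase, at 0.15 ± 0.22.

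**Figure D2:**
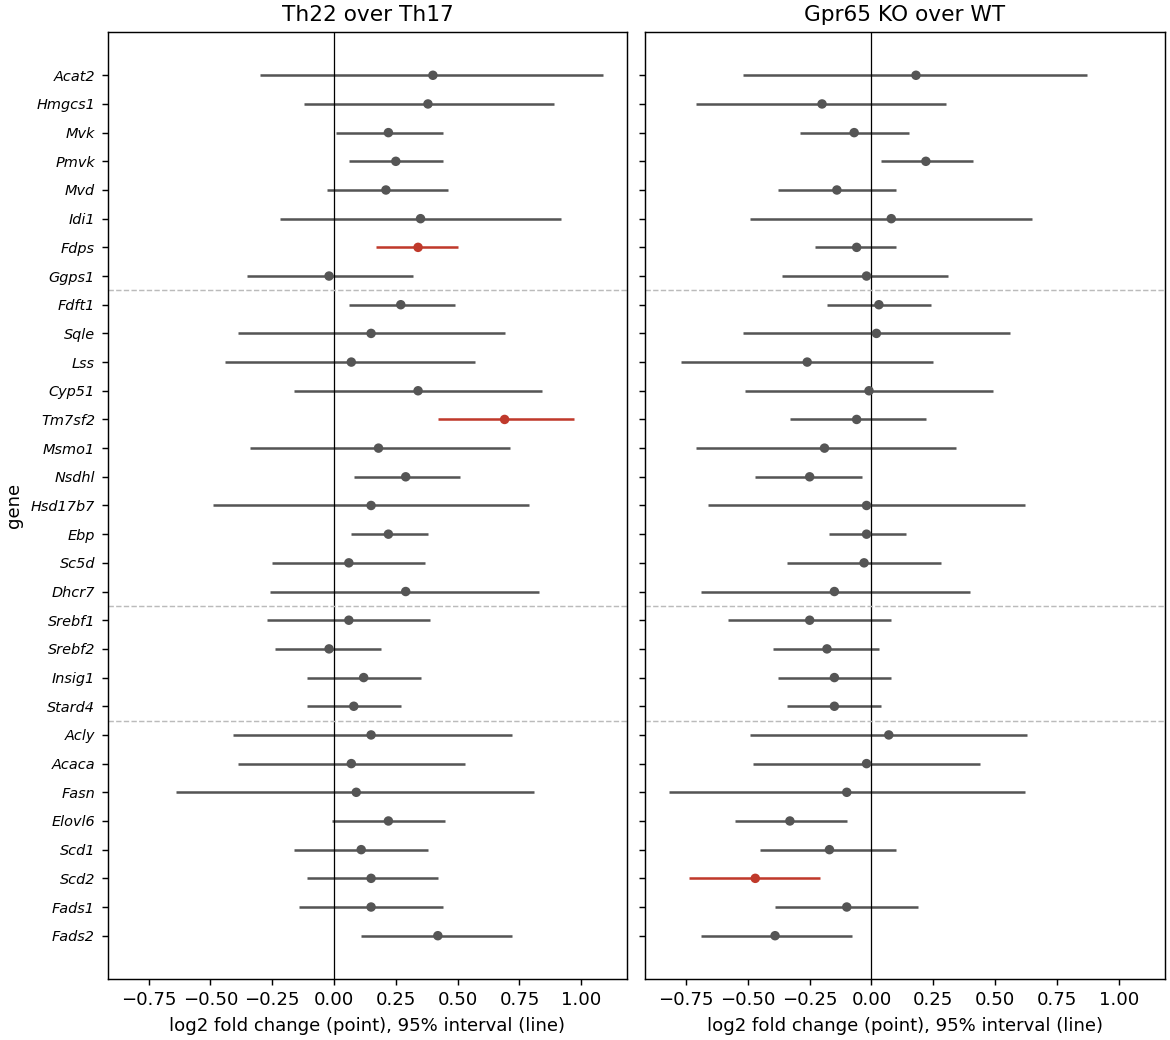
Log2 fold change of each gene (points) with its 95% interval (lines) for Th22 over Th17 (left) and KO over WT (right), each over 4 libraries against 4, with called genes in red. On the left nearly all points lie right of 0 and Tm7sf2 and Fdps are called, and on the right most points lie left of 0 and Scd2 is called.

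KO and WT cells were next compared over both cultures, which asks whether loss of the proton receptor alters the set. Scd2 was the single gene of the 31 called, and it fell in KO, where edgeR called 2.93% of all tested genes in either direction and 1.52% as lower. Scd2 encodes a stearoyl-CoA desaturase, which makes monounsaturated fatty acids, and sits on the plus strand of chromosome 19 between 44293674 and 44306864. Its level was 45.1 and 53.4 CPM in KO Th17 and 51.7 and 60.9 CPM in KO Th22, against 64.4 and 76.1 CPM in WT Th17 and 68.3 and 84.0 CPM in WT Th22. All 4 KO libraries lay below all 4 WT libraries, which also held for 5.13% of all tested genes, and Scd2 was the only gene of the set for which it did. The log2 fold change was -0.47 ± 0.10 (SE), interval -0.74 to -0.21 (edgeR adjusted p = 0.048). The call did not survive leaving out any 1 of the 8 libraries (edgeR adjusted p between 0.056 and 0.19, log2 fold changes between -0.53 and -0.41). The fit counted the Th17 and Th22 libraries of a number as independent, which the labels do not settle. With these summed per genotype and number, the log2 fold change was -0.46 (edgeR adjusted p = 0.50). Reads shared with its near neighbour and paralog Scd1 could be split by the counting, and Scd1 itself was at -0.17 ± 0.11.

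DESeq2 called 2 of the 31 genes, Scd2 and Elovl6, and 7.02% of all tested genes, so its count in the set was near the background. Elovl6, whose values are given above, was at -0.33 ± 0.09 (edgeR adjusted p = 0.084), with WT at 19.1 to 22.8 CPM and KO at 14.1 to 19.8 CPM. Fads2 was at -0.39 ± 0.12 (edgeR adjusted p = 0.12). Of the 8 fatty acid genes, 7 were lower in KO by sign, with a median of -0.14. The exception was Acly, at 0.07 ± 0.22. The 4 regulators were all lower by sign, Srebf1 at -0.25 ± 0.13, Srebf2 at -0.18 ± 0.08, Insig1 at -0.15 ± 0.09 and Stard4 at -0.15 ± 0.07, and none passed (lowest edgeR adjusted p = 0.28, for Srebf2). Srebf1 overlaps Rai1 on the opposite strand.

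Among the mevalonate and sterol genes none was called. Lss was at -0.26 ± 0.20, Hmgcs1 at -0.20 ± 0.20, Msmo1 at -0.19 ± 0.20 and Acat2 at 0.18 ± 0.27, each with an interval that included 0. Fdps was at -0.06 ± 0.07, Ebp at -0.02 ± 0.06, Fdft1 at 0.03 ± 0.08, Mvk at -0.07 ± 0.09 and Tm7sf2 at -0.06 ± 0.11. Nsdhl was at -0.25 ± 0.08 and Pmvk, in the other direction, at 0.22 ± 0.07, each with an edgeR adjusted p of 0.14. Over all 31 genes, 25 were lower and 6 higher in KO by sign, with a median of -0.10, against 6709 lower and 6703 higher among all tested genes. The median was -0.21 without KO Th22 replicate 2, -0.16 without KO Th17 replicate 2, -0.06 without WT Th22 replicate 1, and -0.05 without KO Th17 replicate 1 or without KO Th22 replicate 1. The summed level was 1160 ± 184 CPM (SD, n = 4) in KO and 1220 ± 111 CPM in WT, a difference smaller than the spread between libraries. Without both KO replicate 1 libraries, an alternative chosen after the data were seen, the count by sign became 17 higher and 14 lower and the median 0.01. That fit called 5 genes, with Acat2, Idi1 and Acly higher in KO and Elovl6 and Scd2 lower, in a fit that called 14.1% of all tested genes, a share near that in the set. For Th22 over Th17 the same alternative called 6 genes, Acat2, Hmgcs1, Fdps, Tm7sf2, Dhcr7 and Fads2, all higher, where 4.17% of all tested genes were called. Without both KO replicate 1 libraries the direction by sign over the set in KO was thus lost, whereas Scd2 stayed lower. No fit left out both KO replicate 2 libraries, and leaving out either of them alone took the median further below 0.

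Within a single culture or genotype, 2 libraries stood against 2. edgeR called 0 of the 31 genes for KO over WT in Th17 (3 at an unadjusted p under 0.05), where 0.186% of all genes were called. It called 0 for KO over WT in Th22 (1 unadjusted), where 0.149% of all genes were called. For Th22 over Th17 it called 0 in WT (5 unadjusted), where 0.149% of all genes were called, and 0 in KO (5 unadjusted), where 0.119% were called. Of all 13412 tested genes, 1632, 1569, 1183 and 1451 had an unadjusted p under 0.05 in these comparisons, in that order. DESeq2 called 0, 0, 1 and 0 genes of the set in these comparisons, and 1.48%, 1.07%, 1.09% and 1.29% of all tested genes. The 1 gene was Tm7sf2 in WT, whose edgeR log2 fold change was 0.77 ± 0.15 in WT and 0.61 ± 0.15 in KO. Scd2 was at -0.51 ± 0.16 in Th17 and -0.44 ± 0.16 in Th22. The interaction of genotype and culture called 0 of the 31 genes with edgeR and with DESeq2. In it, 0% of all genes were called by edgeR and 0.0447% by DESeq2. No gene of the set had an unadjusted p under 0.05 for the interaction, where 566 of all 13412 genes did. The interaction estimates for the set ran from -0.39 to 0.42 with standard errors of 0.12 to 0.59, so moderate differences between cultures were not detectable.

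Differences between the numbered KO libraries reached 1.28 on the log2 scale (Acat2 in Th22), against at most 0.77 for any fold change between groups. In KO, replicate 2 exceeded replicate 1 by more than 0.5 on the log2(CPM + 1) scale in both cultures for 9 of the 31 genes (29.0%), against 2.88% of all tested genes. These were Acat2, Idi1, Lss, Cyp51, Msmo1, Hsd17b7, Dhcr7, Acly and Fasn, a group named from this result, with Hmgcs1 (0.49 in Th17 and 0.98 in Th22) and Sqle (0.48 and 1.0) just short of it. No gene of the set was lower by more than 0.5 in both cultures, as 353 of all genes were. Fasn stood at 13.9 and 29.4 CPM in KO Th17 and 12.7 and 27.4 CPM in KO Th22, against 22.9 and 17.6 CPM in WT Th17 and 26.8 and 22.4 CPM in WT Th22. The KO libraries numbered 1 were thus the lowest of the 8 for Fasn and those numbered 2 the highest. Acat2 stood at 11.7 and 19.1 CPM in KO Th17 and 10.5 and 26.8 CPM in KO Th22, against 13.7 and 11.4 CPM in WT Th17 and 19.5 and 16.2 CPM in WT Th22. Idi1 stood at 22.2 and 32.5 CPM in KO Th17 and 24.0 and 51.1 CPM in KO Th22, against 25.8 to 35.8 CPM in the WT libraries. For Acat2 and Idi1, KO Th22 replicate 2 was the highest of the 8 libraries.

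In KO, 22 of the 31 genes were higher in replicate 2 in both cultures, against 5432 of all 13412 tested genes. Some steps of the route showed little of this difference or the reverse. Fdps differed between KO replicates by 0.06 in Th17 and 0.11 in Th22, Ebp by 0.06 and 0.06, Tm7sf2 by -0.33 and -0.01, and Ggps1 by -0.31 and -0.48. Among WT libraries no gene of the set differed by more than 0.5 in either culture, where 333 of all 13412 tested genes did. At that share few or none of 31 genes would be reached, so the 0 does not set these genes apart. For WT the median of replicate 2 over replicate 1 was -0.08 in Th17 and -0.12 in Th22, and for KO it was 0.24 and 0.30. The medians of the 9 genes were 0.66 in KO Th17 and 0.96 in KO Th22, and -0.24 in both WT cultures. For these 9 genes, which were picked for the difference, the KO medians were 0.68 and 0.88 in cells with both cell cycle scores at or below 0. In cells with 2000 to 4000 UMIs they were 0.71 and 1.02. Over all 31 genes the KO medians in these 2 sets of cells were 0.23 and 0.29, and 0.28 and 0.39.

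**Figure D3:**
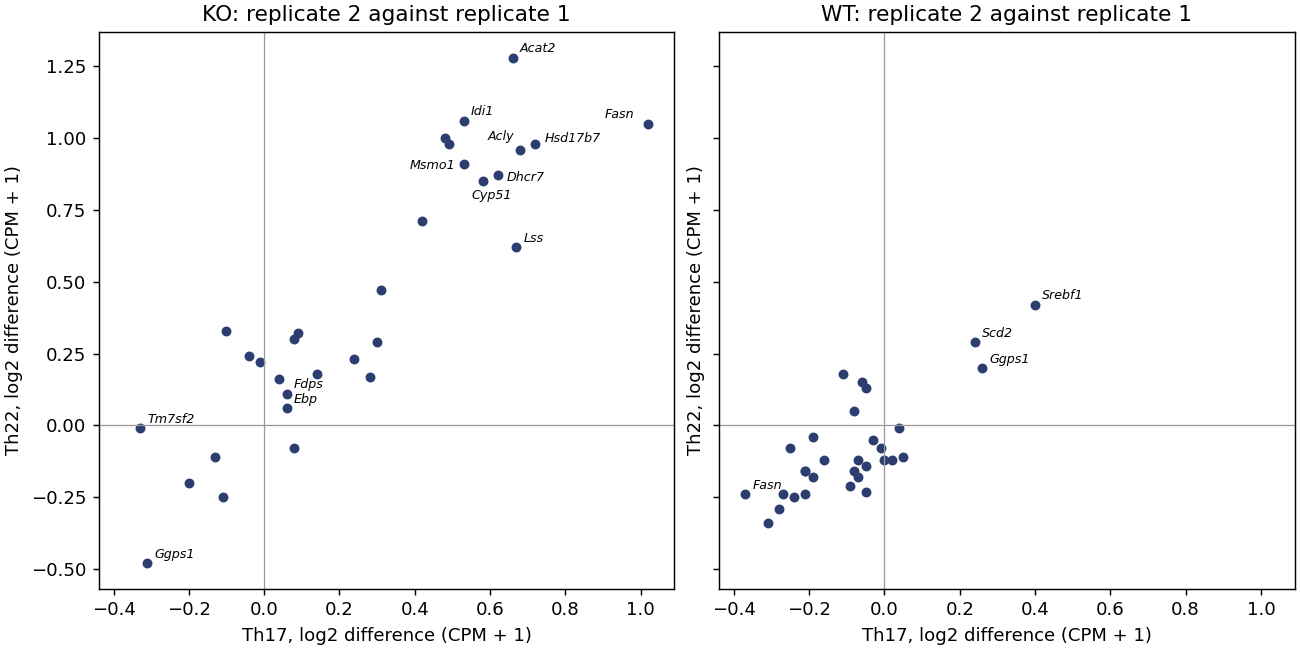
Difference between replicate 2 and replicate 1 in log2(CPM + 1), in Th17 (horizontal axis) and Th22 (vertical axis), for each of the 31 genes, in KO (left) and WT (right). In KO, 9 labelled genes from Lss to Acat2 and Fasn lie above 0.5 on both axes while Fdps and Ebp lie near 0. In WT none of the 31 genes passes 0.5 on either axis, where 333 of all 13412 tested genes (not drawn) did.

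The set was then described across the authors' clusters, using the 10 of 12 clusters that had at least 50 kept cells in every library. The clusters were made from these same cells, so values across clusters are given without a test. The summed level of the 31 genes was lowest in cluster 0, at a median of 994 CPM over the 8 libraries (910 to 1110), and highest in cluster 4 at 1460 CPM (1200 to 1810), cluster 1 at 1430 CPM (1160 to 1780) and cluster 7 at 1430 CPM (1150 to 1630). Cluster 0 had high Klf2 and Pik3ip1, genes of quiescent T cells (85.7 and 211 CPM). Cluster 3, with the cycling gene named below, also had them high (94.3 and 162 CPM). Cluster 1 had the highest Nr4a1, an early gene of T cell receptor signalling (46.8 CPM). Cluster 7 carried Trdc, the γδ receptor constant gene (346 CPM), and cluster 4 Cysltr1 (39.7 CPM). Cluster 2, with Il17a at 106 CPM and Il22 at 110 CPM, stood at 1290 CPM, and cluster 3, with the cycling gene Top2a at 640 CPM, at 1130 CPM.

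Individual genes differed in how strongly they followed this order. Cluster 1 held the highest level for 12 of the 31 genes and the lowest for none. Idi1 stood at a median of 47.8 CPM in cluster 1 and 11.8 CPM in cluster 0, a ratio of 4.05. Hsd17b7 had a ratio of 3.98, Sqle 3.45, Hmgcs1 and Fasn 3.34 each, Acat2 3.28 and Cyp51 3.05. Fdps had a ratio of 1.27, Tm7sf2 1.25, Scd2 1.12 and Ebp 1.0, and Ggps1, Elovl6, Pmvk and Srebf1 were lower in cluster 1 than in cluster 0 (0.743 to 0.857). The 9 genes that differed between the KO replicates had ratios of 1.89 to 4.05 (median 3.05), and the other 22 had ratios of 0.743 to 3.45 (median 1.29). Fads2 was highest in cluster 7, at 16.2 CPM, against medians of 3.25 to 8.36 CPM in the other clusters. Cluster 9 rested on as few as 74 UMIs of the whole set in a library, and its values are weak.

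The shares of cells in these clusters differed between libraries. In KO, cluster 1 held 26.5% of cells in Th17 replicate 1 and 37.2% in replicate 2, and 21.8% and 35.9% in Th22. Cluster 0 held 41.7% and 30.3% in KO Th17, and 47.6% and 36.0% in KO Th22. In WT, cluster 1 held 29% and 24% in Th17, and 28.8% and 23.7% in Th22. In each of the 4 groups, the library with the larger share of cluster 1 had the higher summed level. This order did not hold across groups. KO Th17 replicate 2 had the largest share but a sum of 1130 CPM, against 1270 CPM in WT Th22 replicate 2. Cluster 7, also among the highest in level, held 3.3% and 1.78% of cells in KO Th17, and 3.16% and 1.88% in KO Th22. The 9 genes were picked for the KO replicate difference in the same libraries, so finding it inside clusters is no separate support. In cluster 0 their median for KO replicate 2 over replicate 1 was 0.93 in Th17 and 1.08 in Th22. In cluster 1 it was 0.38 and 0.62, and in cluster 3 it was 0.87 and 1.13. Over all 31 genes the medians were 0.13 and 0.05 in cluster 0, 0.21 and 0.32 in cluster 1, and 0.21 and 0.38 in cluster 3. In cluster 0, 16 of the 31 genes were above 0 in both KO cultures, against 5032 of all 13412 tested genes. The part of cluster shares, of the γδ and NK cell markers and of the cell cycle in the KO replicate difference was not tested beyond these values.

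Within clusters, Fdps was higher in Th22 than in Th17 in all 10 clusters, by 0.27 to 0.40 on the log2 scale of means. The median over the 31 genes was 0.15 in cluster 0, 0.21 in cluster 1, 0.13 in cluster 2 and 0.21 in cluster 3, and over all clusters it ran from -0.04 (cluster 9) to 0.27 (cluster 4), while the medians of all genes lay between -0.01 and 0.02. Tm7sf2 was higher in Th22 in 9 of the 10, the exception being cluster 5 at -0.14. Its counts in the small clusters were few. The lowest library was at 0 CPM in clusters 8 and 9, and the median over libraries was 0 CPM in cluster 9. For KO over WT, Scd2 was lower in all 10 clusters, by -0.05 (cluster 4) to -0.95 (cluster 9). The set as a whole differed more by cluster in this comparison. In clusters 1 and 2, 29 of the 31 genes were lower in KO (medians -0.16 and -0.21), whereas in cluster 0, 20 of 31 were higher (median 0.04). Of all tested genes, 50.7%, 47.9% and 50% were higher in KO in clusters 1, 2 and 0. The KO libraries differed among themselves. In cluster 1 their summed levels were 1160 and 1350 CPM in Th17 and 1380 and 1780 CPM in Th22, the last being the highest of the 8 libraries. The 8 libraries behind every one of these cluster values are those of the comparisons above.

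**Figure D4:**
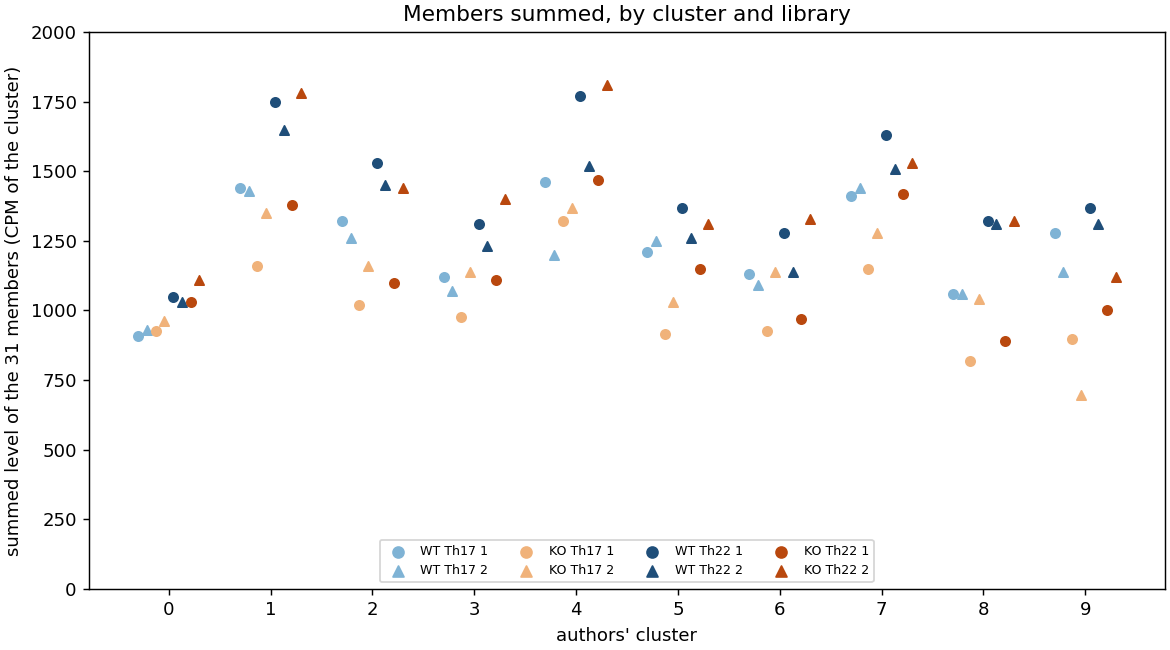
Summed level of the 31 genes in CPM of the cluster (vertical axis, from 0) for the 10 clusters (horizontal axis), with 1 point per library, colour for group and shape for replicate. Cluster 0 is lowest with a narrow spread (910 to 1110 CPM), clusters 1, 4 and 7 are highest, and the KO replicate 1 circles lie below the KO replicate 2 triangles of the same culture in 9 of the clusters, with cluster 9 reversed in Th17.

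By cell cycle, 27 of the 31 genes were higher in cells with a positive score for S or G2/M phase than in cells with both scores at or below 0, with a median log2 ratio of 0.15, against 5959 of 13412 genes and a median of -0.02. The summed level was 1270 ± 171 CPM (SD, n = 8) in the former and 1150 ± 134 CPM in the latter, higher in all 8 libraries. Fads2 showed the largest ratio, at 9.21 ± 2.47 CPM against 4.36 ± 0.990 CPM, followed by Fads1 at 5.53 ± 0.963 against 3.57 ± 0.271 CPM and Acat2 at 19.8 ± 7.39 against 13.7 ± 4.64 CPM. Ggps1 was the gene most shifted the other way, at 20.9 ± 3.39 against 23.8 ± 2.85 CPM.

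Genes around the set, from lists outside it, were not called by edgeR in either main comparison. For both Th22 over Th17 and KO over WT, edgeR called 0 of 6 genes of SREBP processing, 0 of 7 of sterol efflux and storage, 0 of 13 tested other lipogenic genes, 0 of 11 of glycerolipid synthesis, 0 of 12 of fatty acid oxidation and 0 of 12 of prenyl use. Over all tested genes it called 1.94% for Th22 over Th17 and 2.93% for KO over WT. At those shares few or none of these genes would be reached, so the 0 does not set the lists apart. For Th22 over Th17, the counts at an unadjusted p under 0.05 were 0, 0, 2, 0, 0 and 2, and the medians were 0.08, 0.03, 0.08, -0.12, 0.07 and 0.01, all below the 0.18 of the set. Of the lists described below, the 7 CD4 T cell markers had a median of 0.27, above that of the set. The G2/M and S phase genes had 0.16 and 0.06. For KO over WT the unadjusted counts were 2, 1, 1, 3, 0 and 1, and the medians were 0.01, -0.11, -0.03, -0.04, 0.02 and 0.07. Of all 13412 tested genes, 1945 (Th22 over Th17) and 2597 (KO over WT) had an unadjusted p under 0.05. DESeq2 called none of these 6 lists' genes for Th22 over Th17, where it called 4.12% of all tested genes. For KO over WT, where it called 7.02% of all tested genes, it called 3 genes of the lists. These were Scap, the SREBP escort protein, at 7.23 to 7.87 CPM in KO and 5.74 to 6.29 CPM in WT (0.32 ± 0.08, edgeR adjusted p = 0.068), Tmem97, a sterol-responsive membrane protein (0.37 ± 0.10, edgeR adjusted p = 0.091), and Dgat1, which makes triglyceride (-0.72 ± 0.17, edgeR adjusted p = 0.057). Of the 20 S phase and 20 G2/M genes, edgeR called 0 in either comparison (2 and 5 unadjusted for Th22 over Th17, 4 and 1 for KO over WT) and DESeq2 called 1 S phase gene in each, with medians of 0.06 (S phase) and 0.16 (G2/M) for Th22 over Th17 and 0.18 and -0.12 for KO over WT. Of the 7 CD4 T cell markers, Cd3g (0.53 ± 0.08, edgeR adjusted p = 0.012) and Cd3d (0.39 ± 0.08, edgeR adjusted p = 0.047), subunits of the T cell receptor complex, rose in Th22, and Cd4 fell by 0.36 ± 0.08 in KO (edgeR adjusted p = 0.044). The summed CD4 T cell markers were 3010 to 3340 CPM in Th22 and 2270 to 2730 CPM in Th17, and their part in the difference of Fdps and Tm7sf2 was not tested.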

How the data were processed

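The authors deposited raw UMI counts per gene and cell for all 8 libraries, with a cell table giving cluster numbers, the percent of mitochondrial UMIs (at most 9.99) and S and G2/M phase scores per cell, and the sources used here do not say how these were made. The submitters' processing notes name Cell Ranger 5.0.1, Seurat and mm10, with no step attached. No column lacked a sample. Kept cells had 500 or more genes and no more than 10% mitochondrial UMIs, 101688 of 104660, and doublets were not removed. Counts were summed per library and tested with edgeR 4.0.16 (R 4.3.3; quasi-likelihood F test, robust, TMM factors, filterByExpr, Benjamini-Hochberg over 13412 genes, called at 0.05), with 1 mean per group for single comparisons and an additive model of genotype and polarization over both. The spread is shared by all 8 libraries. The steps were tested on simulated data.

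The members and lists were chosen with earlier results of these data known. Values per library are given for the 10 genes with most calls, ties broken by adjusted p for Th22 over Th17 and then KO over WT, and for the 3 highest means. Of other lists, up to 4 called genes are named. Promoters are shown for named genes with a sterol element, up to 6, and at most 2 without. Genes named beyond this were chosen after their values were seen. Positions come from the GENCODE annotation of GRCm38, matched by symbol (all 31). Replicate numbers were not taken as pairs. Alternatives were other scaling, DESeq2 1.42.0, other gene and cell filters, a depth covariate, replicate blocks and leaving out libraries.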

Additional observations from a re-analysis of the deposited data

How the results depend on the processing

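None of the fold changes of Tm7sf2, Fdps and Scd2 changed sign. The median of the set did for KO over WT over both cultures without both KO replicate 1 libraries (from -0.10 to 0.01), for KO over WT in Th22 without both of them or without KO Th22 replicate 1 (from -0.09 to 0.06 each), for KO over WT in Th17 in cells with 2000 to 4000 UMIs (from -0.09 to 0.02) and, for Th22 over Th17 in KO, without KO Th22 replicate 2 (from 0.20 to -0.05, 15 of 31 higher). For the interaction the set's median was 0.03 and changed sign in several alternatives. It ran from -0.18 (without KO Th22 replicate 2) to 0.20 (with UMIs per cell as a covariate). For KO over WT, the 1 member called became 2 with DESeq2, 0 with a minimum of 5 CPM in 2 libraries, 0 in cells with 2000 to 4000 UMIs, 0 in cells with low phase scores, and 5 without both KO replicate 1 libraries. Leaving out 1 library gave 0 to 1, the 1 being Elovl6 (without KO Th22 replicate 1). For Th22 over Th17, the 2 members called became 1 with library size alone, 0 in cells with 2000 to 4000 UMIs, 0 with UMIs per cell as a covariate, 6 without both KO replicate 1 libraries, and 0 to 1 without 1 library. The fit on cells with 2000 to 4000 UMIs holds fewer counts, and called 18 of 12128 genes for KO over WT and 129 for Th22 over Th17. The cause of the other changes was not tested. For Th22 over Th17 in WT the count of 0 became 1 with DESeq2, 1 with the 4 libraries alone and 1 without both KO replicate 1 libraries. Library size alone shifted the median of all genes by -0.15 for Th22 over Th17 in KO, where the set's median was then 0.03. Tm7sf2 ranged over 0.60 to 0.80 (edgeR or DESeq2 adjusted p 1.9e-05 to 0.092, called in 16 of 22 alternatives), Fdps over 0.24 to 0.37 (0.00046 to 0.16, 10 of 22) and Scd2 over -0.53 to -0.36 (0.0023 to 0.50, 11 of 23).

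The labels do not say that a replicate number marks an animal. Deviations from the group means correlated across 6339 genes at 0.88 between the KO cultures and 0.64 between the WT cultures, and at -0.56 to -0.46 across genotypes, so libraries of a number resembled each other within a genotype, as a hint from the data. With the replicate block the counts were 1 for Th22 over Th17 (198 of 13412 genes) and 1 for KO over WT (289 genes). With a genotype-by-number replicate block, 12 of 31 members were called for Th22 over Th17 (1592 of 13412 genes), 11 in WT (1733 genes), 15 in KO (2269 genes) and 1 for the interaction (550 genes). The 12 were Hmgcs1, Mvk, Pmvk, Mvd, Idi1, Fdps, Fdft1, Cyp51, Tm7sf2, Nsdhl, Ebp and Fads2, all higher. In that pairing 15 of 31 members (48.4%) were higher in Th22 in all 4 pairs, against 17.6% of all genes. For KO over WT, the summed replicate block called 0 members, in a fit that called only 6 of 13927 genes, so the 0 does not set the members apart. A crossed replicate block, added after seeing the data, called 4 members and 1568 genes.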
